A study of Mus musculus with 43 samples.

Results

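The cells described here are 304 of 12323 cells of irradiated mouse intestinal organoids that carried RNA of 4 goblet cell genes, and they are called goblet-score cells below. A cell was taken when Tff3, Fcgbp, Spink4 and Muc2 summed to at least 20 per 10,000 UMIs (unique molecular identifiers, which count RNA molecules) of that cell, among cells with at least 500 UMIs and at most 20% mitochondrial UMIs. The whole series holds 15587 such single cells in 7 libraries. All 4 libraries came from primary intestinal organoids of wild-type C57BL/6 mice that received 4 Gy of irradiation on day 4 and were collected on day 8. One library had vehicle for 24 h, called 0 h, and the others had 1 ng/mL TGFB1 for 6, 15 or 24 h before collection. Each time is 1 library, so differences between times have no replicate check and no test. Bulk RNA from organoids of the same strain, which took no part in choosing the cells, had 3 libraries per group. Its organoids were either not irradiated and taken on day 7 (D7), or irradiated with the same dose and day as above and taken on D7 or on day 11 (D11). Each of these conditions had a vehicle group and a group with TGFB1 at 2 ng/mL, applied for 24 h from day 6. The labels do not say whether the replicates came from separate animals or cultures, so p-values measure the spread between these libraries, which may be technical.

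Goblet cells are secretory cells of the intestinal epithelium that fill granules with mucin and release it as the mucus layer. Like Paneth cells, which secrete antimicrobial peptides at the crypt base, and enteroendocrine cells, which secrete hormones, they arise from progenitors that escape Notch signalling and express the transcription factor ATOH1. SPDEF acts downstream of ATOH1 in goblet and Paneth cell maturation. TFF3 is a small trefoil peptide of mucus, FCGBP a large mucus protein that binds to mucin, SPINK4 a protease inhibitor family member, and MUC2 the gel-forming mucin of the intestine.

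For 2 of the 4 genes that define the cells, the promoter is shown here as reference sequence, from 250 bases before to 50 after the gene's start (RefSeq, GRCm38.p6), with CAGCTG in capitals. That hexamer is one form of the E-box that bHLH factors such as ATOH1 can bind.
Fcgbp, chr7:28070986-28071285, plus strand: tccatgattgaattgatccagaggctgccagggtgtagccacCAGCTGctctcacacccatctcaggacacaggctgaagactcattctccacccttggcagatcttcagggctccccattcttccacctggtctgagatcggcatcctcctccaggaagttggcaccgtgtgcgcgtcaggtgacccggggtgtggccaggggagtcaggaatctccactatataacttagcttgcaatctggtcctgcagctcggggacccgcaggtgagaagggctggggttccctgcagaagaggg
Muc2, chr7:141690090-141690389, plus strand: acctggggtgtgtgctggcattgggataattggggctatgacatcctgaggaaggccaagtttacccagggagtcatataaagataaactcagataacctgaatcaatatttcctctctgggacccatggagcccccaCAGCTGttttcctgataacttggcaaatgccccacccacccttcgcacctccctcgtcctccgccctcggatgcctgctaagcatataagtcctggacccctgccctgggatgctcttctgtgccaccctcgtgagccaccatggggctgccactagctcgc
Each window holds 1 match, at base 43 in Fcgbp and base 139 in Muc2. The search covered both strands and 32851 promoters of 300 bases, of which 16.3% hold CAGCTG, so a match is common. CAGATG, another E-box, is in 17.2% of these promoters, and TGTTTAC, a forkhead-type motif, is in 3.65%. Neither is in the Fcgbp or Muc2 window. A match is a description of letters and not a binding site.

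Goblet-score cells were 2.29 to 2.66% of the cells of each library. There were 78 of 2932 cells at 0 h, or 2.66% (exact binomial 95% interval 2.11 to 3.31). At 6 h they were 98 of 4283 cells, or 2.29% (1.86 to 2.78). At 15 h they were 70 of 2890 cells, or 2.42% (1.89 to 3.05). At 24 h they were 58 of 2218 cells, or 2.61% (1.99 to 3.37). The 4 intervals overlap, and no direction over time can be read from them at this number of cells. Intervals here and below cover counting error only.

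The limit of 20 has cells close to it on both sides, so the cells are defined by a range of a score. Whether they form a separate type was not tested. Of all 12323 cells, 11266 scored under 5, 592 scored 5 to 10 and 161 scored 10 to 20. Above the limit, 56 scored 20 to 30, 30 scored 30 to 40, 81 scored 40 to 100, 77 scored 100 to 200 and 60 scored 200 or more. The cells nearest the limit scored 19.998 and 20.7 at 0 h, 19.8 and 20.1 at 6 h, 19.9 and 20.5 at 15 h, and 18.2 and 24.1 at 24 h, on the outer and inner side. The median score of the goblet-score cells was 76.6 at 0 h, 91.4 at 6 h, 63.4 at 15 h and 106 per 10,000 UMIs at 24 h. Tff3 was the highest of the 4 genes in 277 of the 304 cells and gave 65.3% of the score's UMIs, against 18.4% from Spink4, 15.6% from Fcgbp and 0.717% from Muc2.

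The libraries held 26302424 to 32430950 UMIs, of which goblet-score cells held 693155 at 0 h, 723723 at 6 h, 485868 at 15 h and 479787 at 24 h. Goblet-score cells were shallower than the other cells of their library, with median UMIs of 6702 against 8246 at 0 h, 5966 against 6728 at 6 h, 5748 against 7846 at 15 h and 6315 against 10688 at 24 h. Median mitochondrial shares were 3.27, 3.56, 4.82 and 4.77% in goblet-score cells and 2.95, 3.22, 4.31 and 4.85% in the others. Scrublet, a doublet caller, marked 2, 4, 0 and 0 goblet-score cells, and 1 barcode was shared between the 15 and 24 h libraries, in no goblet-score cell of both.

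**Figure D1:**
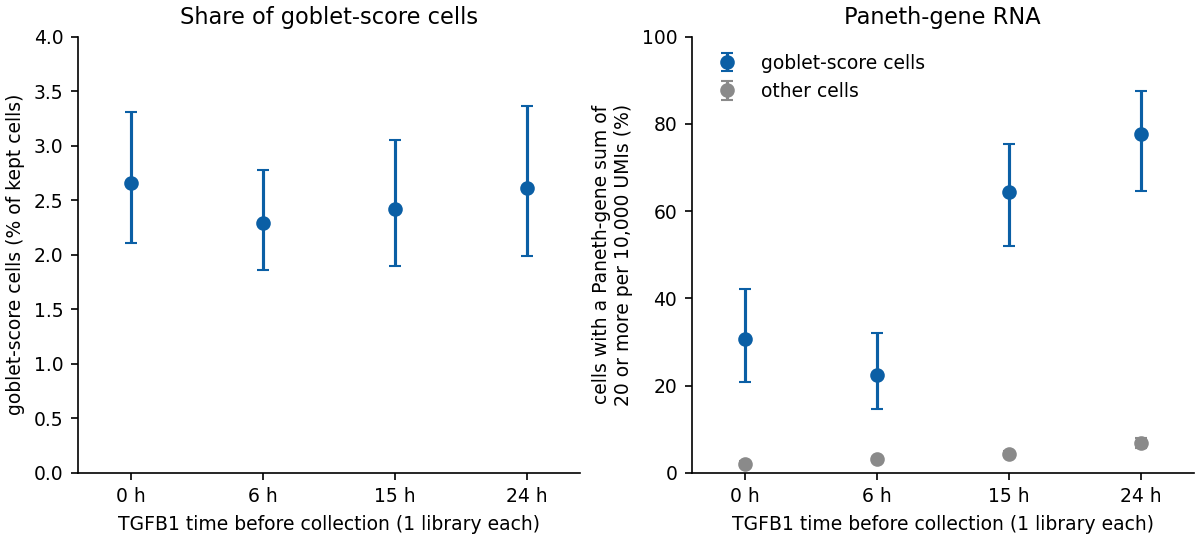
Left, goblet-score cells as a percentage of kept cells in each library (1 library per time), with exact binomial 95% intervals. Right, the percentage of goblet-score cells (blue) and of other cells (grey) in which Lyz1, Defa17, Defa24 and Mmp7 sum to 20 or more per 10,000 UMIs. The share of goblet-score cells stays between 2.29 and 2.66%, while cells with Paneth-gene RNA go from 30.8% of them at 0 h to 77.6% at 24 h.

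The genes of the rule describe how the cells were chosen and carry no test. Levels are CPM, a gene's UMIs summed over the cells of a set in 1 library and scaled to a common total. Tff3 was at 6815 CPM at 0 h, 7732 at 6 h, 6098 at 15 h and 9719 at 24 h, against 49.5 to 56.7 CPM in the other cells. Fcgbp was at 1494, 1982, 1486 and 2257 CPM in the same order, against 25.8 to 51.0. UMIs that the authors' counting split between genes held 1.35 to 20.8% of the Fcgbp UMIs, so its level is less certain. Spink4 was at 1366, 1800, 1665 and 4144 CPM, against 46.9 to 58.7. At 24 h, 3 of the 58 cells held 37.8% of the Spink4 UMIs, and without them its level was 2692 CPM. Spink4 at 24 h was thus above its other times with or without those cells.

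Muc2 RNA was scarce, which limits how far the name goblet reaches. Muc2 was at 67.8 CPM at 0 h, 98.1 at 6 h, 32.9 at 15 h and 131 at 24 h, and 3 cells held 92.1% of its UMIs at 24 h. A Muc2 UMI was seen in 14, 23, 7 and 8 of the goblet-score cells (17.9, 23.5, 10.0 and 13.8%), against 0.812 to 2.08% of the other cells, whose median depth was higher. A Tff3 UMI, for comparison, was seen in 98.0 to 100% of goblet-score cells and in 25.7 to 43.8% of the others. Clca1, a metalloprotease of goblet mucus, was at 8.66, 4.15, 0 and 20.8 CPM, and Retnlb, a resistin-like protein that goblet cells secrete, was at 0 in all 4 libraries. The set is therefore called by its score, and the label goblet-like is not used for it below.

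Most tested goblet product genes and secretory factors outside the rule were higher in these cells on average over the 4 libraries. Goblet-score and other cells were compared over the 4 libraries with edgeR's quasi-likelihood test on summed UMIs with the library as a block. The cells were selected on RNA of the same cells, so the test asks which other genes went with the score on average over the 4 libraries. A call does not require the same direction in each library, and the 4 rule genes stay out of the counts. Of 13779 genes tested, 1250 (9.07%) were higher and 2201 (16.0%) lower in goblet-score cells at a Benjamini-Hochberg adjusted p under 0.05. Among the other goblet product genes, 12 of 15 tested were higher and 2 lower, with a median log2 difference of 3.78 against −0.04 over all genes tested. Among the secretory transcription factors and Notch ligands, 13 of 13 were higher, with a median of 3.63. Both lists were chosen with results of these data known.

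The transcription factors that direct the secretory lineage were higher in goblet-score cells. Atoh1 was at 41.8, 52.5, 32.9 and 79.2 CPM in goblet-score cells at 0, 6, 15 and 24 h and at 0.525 CPM or less in the other cells, a log2 difference of 6.89 ± 0.38 (SE, edgeR, adjusted p = 1.581e-15). Spdef was at 63.5, 41.5, 70.0 and 62.5 CPM against 0.284 to 1.16, a log2 difference of 6.35. Gfi1, a repressor that acts after ATOH1, was at 14.4, 11.1, 6.17 and 16.7 CPM against 0.0995 or less. For all 3 factors each library's goblet-score cells lay above every library's other cells. The forkhead factors Foxa1, Foxa2 and Foxa3 were 0.96, 1.84 and 1.41 higher on the log2 scale. The Notch ligands were higher too, with Dll1 at 140, 77.4, 78.2 and 89.6 CPM against 23.7 to 28.1, and Dll4 at 36.1, 37.3, 12.3 and 12.5 CPM against 1.46 to 2.11. Neurog3 and Insm1, factors of the enteroendocrine line, were 4.26 and 4.25 higher, and Pou2f3, the tuft cell factor, 3.84 higher. Klf4 was 0.55 higher, a call that was lost without the 0 h library (log2 0.32, edgeR adjusted p = 0.178).

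Mucus proteins and their folding enzymes followed. Agr2, a disulphide isomerase needed for mucin folding, was at 742, 1393, 362 and 815 CPM in goblet-score cells and at 35.6, 20.3, 11.5 and 15.1 CPM in the others, a log2 difference of 5.11 ± 0.18 (SE, edgeR, adjusted p = 2.174e-20). Its level at 15 h was the lowest of the 4 in both sets. Zg16, a lectin of the mucus that binds bacteria, was at 159, 333, 16.5 and 198 CPM, but 5.17 to 14.3% of the cells held its UMIs and 3 cells gave 71.8 to 100% of them. Its level in a library is thus that of a few cells. Tpsg1, a membrane serine protease, was at 33.2, 42.8, 28.8 and 41.7 CPM against 0.332 or less. Ccl9 and Ccl6, which encode chemokines, were 4.96 and 4.55 higher on the log2 scale. The transmembrane mucins went the other way or did not pass, with Muc13 lower by a log2 difference of −0.54, Muc3 by −1.19, and Muc4 at 0.28 (adjusted p = 0.515).

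The machinery for making and exporting mucin was raised in part. Of 22 endoplasmic reticulum and unfolded protein genes, 11 were higher and 1 lower, with a median of 0.42. Ern2, the stress sensor of mucus-secreting cells, was at 39.0, 44.2, 41.2 and 66.7 CPM against 0.349 to 0.631, a log2 difference of 6.24. Creb3l1 and Creb3l4, membrane-bound factors of secretory cells, were 3.48 and 3.66 higher. Some general members passed by less, with Manf 0.90 and Pdia4 0.74 higher. Others did not pass, with Xbp1 at −0.06 (adjusted p = 0.777) and Hspa5, the main chaperone of the compartment, at 0.19 (adjusted p = 0.177), though Hspa5 passed with a score limit of 40 (0.37, edgeR adjusted p = 0.0124). Of 11 mucin glycosylation genes tested, 5 were higher and 1 lower, with a median of 0.41. Fut2, a fucosyltransferase, was 6.26 higher, Galnt12, which starts O-glycan chains, 2.63 higher and Gcnt3, which branches them, 2.23 higher. B3gnt6 and St6galnac1 were at 0 in goblet-score cells in all 4 libraries and at 0.473 CPM or less in the others. Of 12 granule traffic genes, 7 were higher and 2 lower, with a median of 1.47. Sytl2 and Bhlha15, which encode a granule-docking protein and a factor of secretory cells, were 5.05 and 4.58 higher, while Scin, an actin-severing protein, was lower by −1.93 and Vamp8, a membrane fusion protein, by −0.62.

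The rule for naming genes picked 12 higher genes, of which 7 are on a fixed list: Atoh1, Spdef, Ern2, Zg16, Agr2, Ccl9 and Reg4, described above or below. The remaining genes it picked were Afp, Selenom, Elapor1, Hepacam2 and Clps. Selenom, an endoplasmic reticulum selenoprotein, was at 59.2, 133, 86.5 and 144 CPM against 1.43 to 2.45, a log2 difference of 5.54. Elapor1, an endosome and lysosome protein, and Hepacam2, a membrane protein, were 5.10 and 5.02 higher. Clps, which encodes colipase, was 4.41 higher. Among the lowest genes were Prss30, Mfsd4b2, Pdzd2, Ccdc152, Gm48585, Pga5 and A130014A01Rik, each with 0 UMIs in goblet-score cells. Against a floor of 3 UMIs over the whole set, they were at least 2.14-fold (Pga5) to at least 4.08-fold (Prss30) lower. The call for Prss30 and Ccdc152 was lost without the library term (adjusted p = 0.0725 and 0.0681), and that for Pga5 and A130014A01Rik with a limit of 40 (adjusted p = 0.0546 and 0.0525).

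Absorptive genes were low. All 12 enterocyte genes were lower in goblet-score cells, with a median log2 difference of −2.33. Fabp1, the fatty acid binding protein of enterocytes, was at 744, 1524, 1008 and 773 CPM against 8575, 9239, 9065 and 5937, a log2 difference of −3.26 ± 0.10 (SE, edgeR, adjusted p = 1.256e-21). Of 12 proliferation genes, 8 were called higher and 0 lower, with a median of 0.42. These calls depended on the settings: 5 of the 8 were lost with a score limit of 40, among them Top2a (edgeR adjusted p = 0.430), and 7 of the 8 with the library term left out, among them Mki67 (0.210). Mki67 was at 235, 217, 127 and 133 CPM against 122, 143, 82.8 and 58.6, and a UMI of Mki67 or Top2a was seen in 55 of 78, 54 of 98, 37 of 70 and 31 of 58 goblet-score cells. The other cells were not counted in this way, so these shares cannot be called particular to goblet-score cells. Of 10 stem cell genes, 4 were higher and 0 lower, and Lgr5 itself was at 0.04 (adjusted p = 0.922). These calls also depended on the settings. Olfm4 was called lower with a score limit of 40 (log2 −0.62, edgeR adjusted p = 2.7e-05) and without the 24 h library (−0.29, 0.0032). Slc12a2, called higher, was lost with that limit (0.0997), and Prom1 and Smoc2 with the library term left out (0.0705 and 0.167). Genes of immune and mesenchymal cells were at or near 0, and 1 gene of each list was abundant enough to test.

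**Figure D2:**
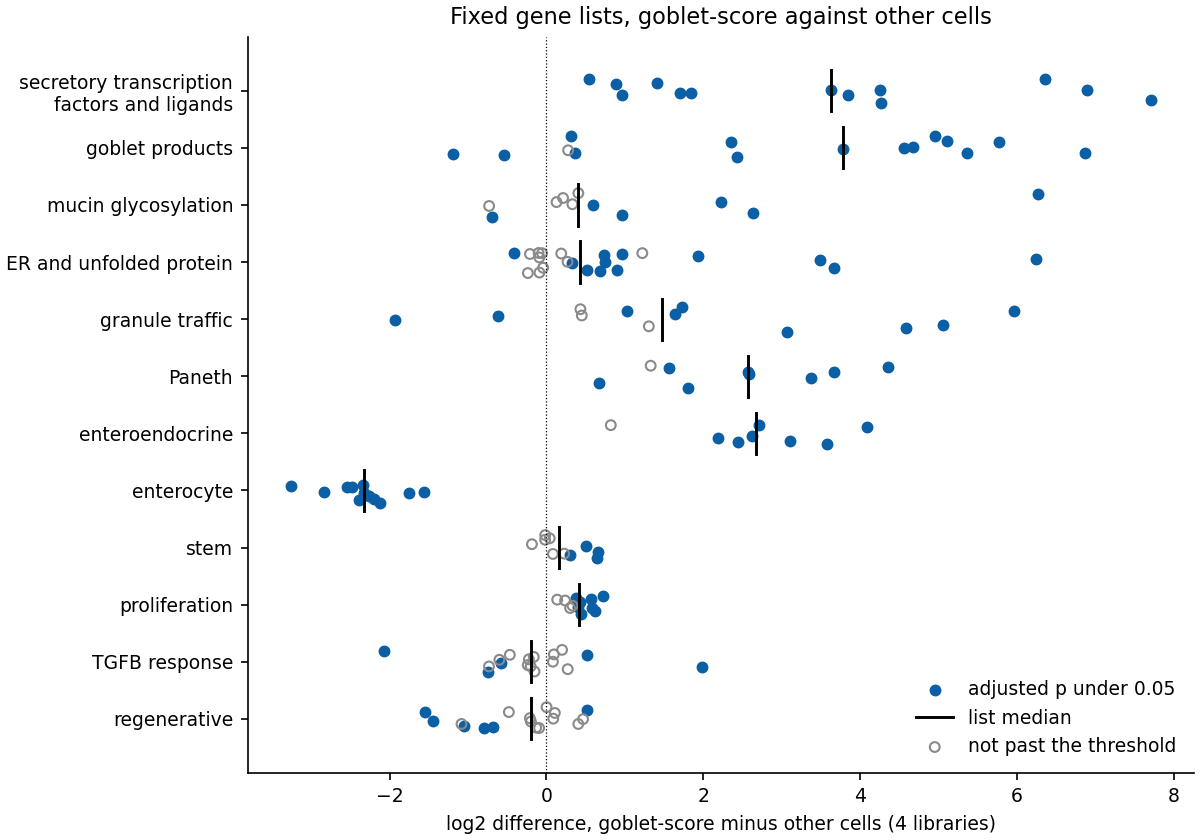
Log2 difference between goblet-score and other cells (positive means higher in goblet-score cells) for the tested genes of 12 lists, with filled points for an adjusted p under 0.05, open points for the others and a black bar at each list's median. Secretory factors and goblet products have medians of 3.63 and 3.78, Paneth genes 2.57, enterocyte genes −2.33, and TGFB response and regenerative genes −0.20 each.

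Paneth cell genes were also high, and their RNA was in most goblet-score cells at 15 and 24 h. Of 9 Paneth genes tested, 8 were higher and 0 lower, with a median log2 difference of 2.57. Some single calls rested on the 24 h library or on the tool. Defa22 and Nupr1 were lost without that library (edgeR adjusted p = 0.0904 and 0.148), and Defa22 and Defa30 with DESeq2 (0.154 and 0.0697). Lyz1, which encodes lysozyme, was at 641 CPM at 0 h, 526 at 6 h, 1206 at 15 h and 3793 at 24 h, against 65.7, 71.4, 112 and 150 CPM in the other cells. Defa24, an alpha-defensin, was at 678, 935, 2264 and 7001 CPM against 214, 237, 270 and 338. Mmp7, the protease that activates defensins, was at 11.5, 40.1, 198 and 567 CPM against 1.54, 3.03, 7.32 and 16.8. The 3 genes differ by time in goblet-score cells by far more than their counting intervals. For Mmp7 these intervals ran from 4.98 to 22.7 at 0 h and from 502 to 638 at 24 h. They do not cover the spread between cells or between libraries. Defensin genes are near-identical copies, and the authors' counting can split their UMIs, so levels of single defensins are uncertain.

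Paneth gene RNA was in more of the goblet-score cells at 15 and 24 h. Lyz1 UMIs were in 57.7, 57.1, 80.0 and 96.6% of goblet-score cells at 0, 6, 15 and 24 h, and the median cell held 1.49, 1.71, 7.86 and 16.9 per 10,000 UMIs. With every cell thinned to 2000 UMIs, Lyz1 was in 41.0, 41.8, 65.7 and 87.9% of goblet-score cells and in 12.1, 13.6, 21.5 and 30.0% of the others. Lyz1 was thus found in more cells at 15 and 24 h in both sets. Free RNA in the droplets gives UMIs in cells that do not express a gene, and its part was not tested. A stricter count used the sum of Lyz1, Defa17, Defa24 and Mmp7, with a limit set after seeing the data. It was at 20 or more per 10,000 UMIs in 24 of 78 goblet-score cells at 0 h (30.8%, exact binomial 95% interval 20.8 to 42.2), 22 of 98 at 6 h (22.4%, 14.6 to 32.0), 45 of 70 at 15 h (64.3%, 51.9 to 75.4) and 45 of 58 at 24 h (77.6%, 64.7 to 87.5). In the other cells the shares were 2.10, 3.11, 4.29 and 6.81%. The intervals at 15 and 24 h lie above those at 0 and 6 h. Between 12 and 24 goblet-score cells per library lay near this limit, with a sum of 10 to 40. At the other end, the sum was under 5 in 42, 43, 10 and 2 cells.

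Cells with the most lysozyme RNA were mostly inside the goblet-score set. Of all cells with Lyz1 at 20 or more per 10,000 UMIs, goblet-score cells were 12 of 15 at 0 h (80.0%), and 62.5, 73.7 and 74.3% at 6, 15 and 24 h. Most cells with the 4-gene Paneth sum at 20 or more, however, lay outside the set. Of those, goblet-score cells were 24 of 84 at 0 h (28.6%), and 14.5, 27.1 and 23.4% at 6, 15 and 24 h. Within the set, cells at or above the Paneth-gene limit were compared with those below it in each library. Spink4, a rule gene on which the cells were chosen, was at 3503, 4436, 2148 and 5755 CPM in the cells above it. Below it, Spink4 was at 892, 1222, 953 and 490. Tff3 and Fcgbp, also rule genes, were higher above the limit in every library as well. Itln1, an intestinal lectin, was at 913, 599, 515 and 1589 CPM above it and at 35.3, 99.4, 132 and 81.7 below it. Atoh1 was at 87.4, 161, 44.9 and 108 CPM above it and at 31.7, 28.6, 15.3 and 13.6 below it. Itln1 and Atoh1, which are outside the rule, were higher above the limit in 4 of 4 libraries. The exact Poisson 95% intervals of Itln1 lay apart at every time. Those of Atoh1 overlapped at 0 h and at 15 h, where it had 13 against 3 UMIs. Spdef went both ways, at 127, 38.4, 65.6 and 69.1 CPM above it and at 49.4, 42.1, 76.4 and 47.7 below it. Zg16 was at 95.3, 92.1, 6.91 and 198 CPM above it and at 173, 386, 30.6 and 198 below it, lower above the limit at 0, 6 and 15 h. Its exact Poisson 95% intervals lay apart at 6 h and overlapped at 0 h and at 15 h, where it had 2 against 6 UMIs. Muc2 was at 47.7, 76.7 and 27.6 CPM above it and 72.3, 103 and 40.8 below it at 0, 6 and 15 h, and at 147 against 95.3 at 24 h. Its intervals overlapped at every time, on 6 against 41 UMIs at 0 h and 8 against 8 at 15 h, so no direction can be read for Muc2. Agr2 was at 921, 1420, 380 and 1021 CPM above the limit and at 702, 1387, 336 and 347 below it, with intervals apart only at 24 h. Ern2 was at 55.6, 61.4, 48.3 and 87.1 CPM above it and at 35.3, 40.4, 30.6 and 20.4 below it, with overlapping intervals at every time.

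The score's own height also went with these genes. Of the 304 cells, 86 scored 20 to 40, 81 scored 40 to 100 and 137 scored 100 or more. Agr2 was at 135, 505 and 1868 CPM in these 3 tiers, and Atoh1 at 14.5, 31.9 and 99.7 CPM. Lyz1 was at 491, 995 and 2462 CPM and Defa24 at 898, 1152 and 4612. These 4 genes were higher in the top than in the bottom tier in 4 of 4 libraries. All 12 proliferation genes had fewer CPM in the top than in the bottom tier. Top2a was at 271 and 166 CPM in the bottom and top tier and Ccnb1 at 99.3 and 54.0, each lower in 4 of 4 libraries, while Mki67 was at 195 and 190 CPM. Olfm4, a stem cell marker, was at 2730, 2013 and 1212 CPM, lower in the top tier in 3 of 4 libraries. At 24 h, 51.7% of the goblet-score cells were in the top tier, against 41.0, 45.9 and 42.9% at 0, 6 and 15 h.

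**Figure D3:**
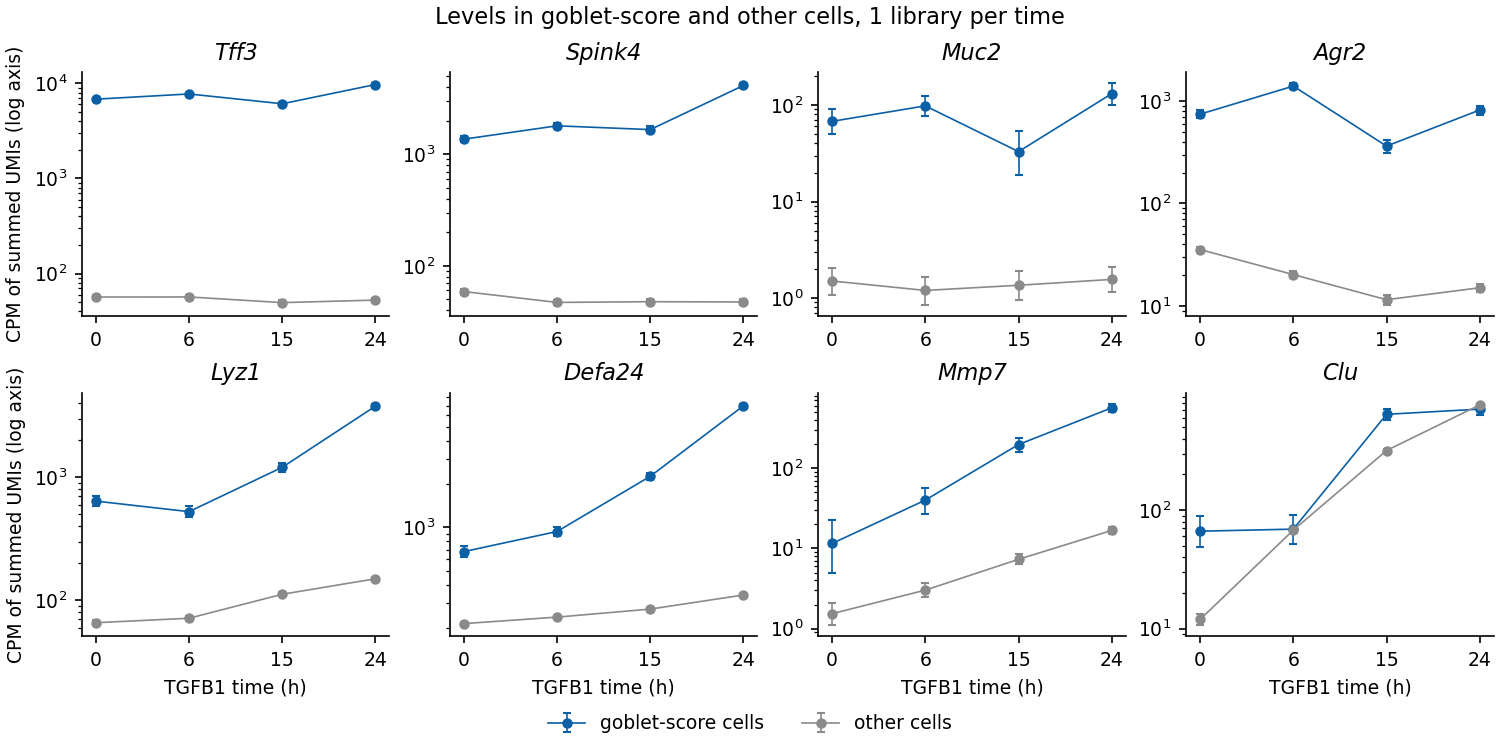
CPM of summed UMIs on a log axis for 8 genes in goblet-score cells (blue) and other cells (grey) by TGFB1 time, with exact Poisson 95% intervals and 1 library per time. Lyz1, Defa24 and Mmp7 are highest at 24 h in goblet-score cells (3793, 7001 and 567 CPM), Agr2 and Muc2 are lowest at 15 h (362 and 32.9 CPM), and Clu goes from 66.4 to 713 CPM.

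Across all genes, TGFB1 time was read as folds against the 0 h library, which the 3 later times share. Of 3413 genes with a mean of at least 50 CPM in goblet-score cells, 57 (1.67%) were 2-fold or more higher and 16 (0.469%) lower at 6 h. At 15 h, 133 (3.90%) were higher and 95 (2.78%) lower, and at 24 h 183 (5.36%) were higher and 126 (3.69%) lower. The other cells, whose sums hold many more UMIs, had 3211 such genes. Of these, 39 (1.21%) were higher and 8 (0.249%) lower at 6 h, 75 (2.34%) and 19 (0.592%) at 15 h, and 117 (3.64%) and 40 (1.25%) at 24 h. The split at 24 h turned to 146 higher and 183 lower with TMM scaling, which put the median of all genes at −0.15 on the log2 scale, and at 15 h it became 126 and 120. With a score limit of 40 the split at 24 h was 208 higher and 226 lower.

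Of the lists, Paneth and enterocyte genes held several that were higher than at 0 h, the enterocyte genes depending on which cells were taken. Of the 6 Paneth genes over 50 CPM, 2 were 2-fold or more higher and 1 lower at 6 h, 4 were higher and 0 lower at 15 h, and 6 were higher and 0 lower at 24 h, with median log2 folds of 0.56, 1.5 and 3.39. Over all genes, 5.36% were higher at 24 h. In the other cells 2 of 5 were higher at 24 h, with a median of 0.66. Of 9 goblet product genes, 4 (Itln1, Ang4, Ccl9 and Reg4) were higher and 1 lower at 24 h, with a median of 0.39. Itln1 was at 195, 189, 360 and 1128 CPM, and Ang4, an antimicrobial ribonuclease of Paneth and goblet cells with close copies in the genome, at 15.1, 79.5, 155 and 224 CPM. Lgals2, a galectin of enterocytes and goblet cells, was the lower one, at 4032, 3866, 2394 and 1674 CPM, and was at 2503 and 1267 CPM at 0 and 24 h in the other cells. Of 9 secretory factors, 1 was higher and 0 lower at 24 h. That factor was Sox9, needed for Paneth cells, at 129, 196, 290 and 276 CPM, while Dll1 at 24 h was 89.6 against 140 CPM at 0 h. Of the 4 rule genes, Spink4 was the 1 at 2-fold or more at 24 h. Of 11 enterocyte genes over 50 CPM, 4 were 2-fold or more higher at 6 h, 4 at 15 h and 3 at 24 h, with 0 lower, against 2, 4 and 3 of 12 in the other cells. With a score limit of 40, Apoa1, Apoa4, Fabp1 and Krt20 were 2.60, 1.65, 1.75 and 3.53-fold at 6 h. With that limit, Apoa1, Apoa4, Rbp2 and Krt20 were 1.55, 1.03, 1.21 and 1.74-fold at 15 h. At 24 h, with the hormone-RNA cells described below left out, Apoa1, Apoa4 and Krt20 were 1.98, 1.82 and 1.84-fold. Apoa1, an apolipoprotein of enterocytes, was at 247, 905, 832 and 673 CPM in goblet-score cells and at 819, 1834, 2482 and 2496 in the others. Goblet-score cells whose enterocyte genes summed to 100 or more per 10,000 UMIs were 7 of 78 (8.97%, 3.68 to 17.6), 17 of 98 (17.3%, 10.4 to 26.3), 12 of 70 (17.1%, 9.18 to 28.0) and 10 of 58 (17.2%, 8.59 to 29.4), with overlapping intervals.

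A small group of cells with hormone RNA stood apart at 24 h. Of 8 enteroendocrine genes tested between the sets, 7 were higher and 0 lower, with a median of 2.67, but single calls rested on that library or on the tool. Neurod1 and Cpe were no longer called without the 24 h library (adjusted p = 0.111 and 0.310), nor Chga and Chgb with DESeq2 (0.113 and 0.163). Chga and Chgb, which encode chromogranins of enteroendocrine granules, were at 5.77 and 14.4 CPM at 0 h and at 715 and 1549 CPM at 24 h. Cells with both summed at 10 or more per 10,000 UMIs numbered 1 of 78, 1 of 98, 2 of 70 and 8 of 58, and 0.143 to 0.787% of the other cells. Of the 8 cells at 24 h, 4 also passed the Paneth-gene limit. Cck, a hormone, went from 4.33 to 1803 CPM, and 3 cells held 98.3% of its UMIs at 24 h. Afp, alpha-fetoprotein, was at 2.89 and 1528 CPM with 98.4% in 3 cells, and Reg4, a secreted lectin, at 75 and 3193 CPM with 93.8% in 3 cells. Reg4 without those 3 cells was at 205 CPM. The difference between goblet-score and other cells in Cck was 3.58 over 4 libraries and −0.47 without the 24 h library (edgeR adjusted p = 0.543), and that in Afp went from 6.88 to 3.88. With these hormone-RNA cells left out, an alternative whose limit was also chosen after seeing the data, 181 genes were higher and 129 lower at 24 h. Lyz1, Defa24 and Mmp7 were then at 4003, 7520 and 609 CPM at 24 h, as high as with them.

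Of the 10 genes the rule named as highest at 24 h, Cck (417-fold), Chga (124-fold), Chgb (107-fold) and Reg4 (42.6-fold) belong to the cells just described, as does Afp at 353-fold or more against a floor of 3 UMIs. Mmp7 was 49.1-fold higher, against 10.9-fold in the other cells. Defa20 and Defa23 were 43.9-fold or more and 23.6-fold higher, with the same doubt about copies. Gm25829 and the small nuclear RNA 7SK were 75-fold and 16.4-fold higher, and 21.3-fold and 13.1-fold higher in the other cells. With the hormone-RNA cells left out, they were 25.5-fold and 8.59-fold higher in goblet-score cells. Among the 10 lowest, Dmbt1, a mucus-associated scavenger protein, was at 547, 536, 333 and 133 CPM in goblet-score cells and at 439 and 381 CPM at 0 and 24 h in the others. Gstm3, a glutathione transferase, was 5.36-fold lower, and Kpna2, Nutf2 and Agpat5 were 4.30-fold, 4.12-fold and 4.43-fold lower. The rest were Gm10925, Gm43558, Gvin-ps3 and 2 rows of the pseudogene Gvin-ps1, whose near-identical copies leave their levels uncertain.

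TGFB response and regenerative genes were called in both directions between goblet-score and other cells, and several of these calls depended on the settings. Of 17 TGFB response genes tested between the sets, 2 were higher and 3 lower, with a median of −0.20, beside 9.07% higher and 16.0% lower of all genes tested. Itga2, called higher, was lost without the 0 h library (edgeR adjusted p = 0.155). Smad7 and Id3, called lower, were lost with the library term left out (0.343 and 0.166), and Smad7 with DESeq2 (0.153). Pmepa1, a feedback inhibitor of the pathway, was at 33.2, 169, 352 and 459 CPM in goblet-score cells and at 15.2, 161, 229 and 332 in the others, a log2 difference of 0.27 (adjusted p = 0.102). Skil, another feedback gene, was at 21.6, 77.4, 82.3 and 129 CPM against 28.2, 84.0, 96.2 and 101, a difference of −0.24 (adjusted p = 0.214). Both RNAs were higher at 6, 15 and 24 h than at 0 h in both sets. Cdkn2b, a TGFB-induced cell cycle inhibitor, differed, at 8.66, 12.4, 22.6 and 14.6 CPM against 42.7, 42.5, 63.3 and 61.8, a log2 difference of −2.08 ± 0.20 (SE, edgeR, adjusted p = 8.775e-10). Of 17 regenerative genes, 1 was higher and 5 lower. The higher one, Krt7, was lost without the 0 h library (edgeR adjusted p = 0.06) or the library term (0.703). Anxa1 and Anxa8, called lower, were lost without the 24 h library (0.570 and 0.478) and with DESeq2 (0.185 and 0.154). Clu, which marks regenerating epithelium, was at 66.4, 69.1, 644 and 713 CPM against 11.9, 67.8, 319 and 774. S100a6 was at 361, 307, 1000 and 896 CPM against 175, 322, 959 and 1787. Areg, an EGF family ligand, was at 113, 78.8, 107 and 165 CPM against 259, 156, 299 and 403, a log2 difference of −1.45. Over time, 7 of 8 regenerative genes were 2-fold or more higher at 15 h and 6 of 8 at 24 h in goblet-score cells, and 5 and 6 of 8 in the others. Of 12 proliferation genes, 3 were 2-fold or more lower at 15 h and 1 at 24 h.

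The same genes were then read in bulk organoid RNA, where fewer cells of a type and less RNA per cell cannot be told apart. Dose and day differ from the single-cell libraries. Values are FPKM, fragments scaled to transcript length and library size, tested with limma on log2(FPKM + 1) within each table. Over all genes, 33.3, 35.8 and 32.3% were called higher and 34.9, 39.7 and 31.6% lower with TGFB1 in D7 non-irradiated, D7 irradiated and D11 irradiated organoids. Of the 19 rule and goblet product genes tested, 4 rose and 12 fell in D7 non-irradiated organoids, 7 rose and 11 fell in D7 irradiated organoids, and 5 rose and 11 fell at D11. Their median log2 changes were −0.29, −0.28 and −0.46, against −0.02, −0.03 and 0.01 over all genes.

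Fcgbp and Muc2 fell in all 3 tables. In D7 irradiated organoids Fcgbp was at 151, 140 and 141 FPKM with vehicle and at 85.1, 92.2 and 85.1 with TGFB1, a log2 change of −0.71 ± 0.04 (SE, limma, adjusted p = 1.3611e-07). Its changes were −0.64 in D7 non-irradiated organoids and −0.81 at D11. Muc2 was at 20.4, 20.1 and 20.4 FPKM with vehicle and at 12.8, 13.9 and 12.7 with TGFB1 in D7 irradiated organoids, a change of −0.59, and its changes elsewhere were −0.68 and −0.52. No vehicle library overlapped a TGFB1 library for either gene in any table. Tff3 behaved differently by condition. It was at 3172, 3231 and 3133 FPKM with vehicle and at 2669, 2539 and 2607 with TGFB1 in D7 non-irradiated organoids, a change of −0.29 ± 0.03 (SE, limma, adjusted p = 4.7222e-06). In D7 irradiated organoids it was at 1079, 1097 and 1091 against 1065, 1120 and 1017 FPKM, a change of −0.03 (adjusted p = 0.518), with overlapping libraries. Quantile normalization moved that value to −0.31 (adjusted p = 5.1247e-05). At D11 Tff3 was at 1596, 1814 and 1519 against 1030, 1030 and 950 FPKM, a change of −0.71. Spink4 fell by 0.46 in D7 non-irradiated organoids. Its changes of −0.13 in D7 irradiated organoids (adjusted p = 0.0249) and −0.49 at D11 (adjusted p = 0.00964) did not hold in every setting. The first was lost without vehicle replicate 2 (adjusted p = 0.0763), vehicle replicate 3 (0.0759) or TGFB1 replicate 1 (0.0984), and the second with quantile normalization (0.0697).

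Other secretory genes depended more on the condition. Agr2 was at 188, 191 and 193 FPKM with vehicle and at 70.1, 70.4 and 63.0 with TGFB1 in D7 irradiated organoids, a change of −1.48 ± 0.05 (SE, limma, adjusted p = 9.6399e-10). Its change was −0.90 in D7 non-irradiated organoids and 0.14 at D11, where the libraries overlapped (adjusted p = 0.282). Atoh1 fell by 0.44 and 0.87 in the D7 tables and was at 0.12 at D11 (adjusted p = 0.627). Spdef was at 8.63, 7.71 and 6.57 FPKM with vehicle and at 26.2, 23.0 and 18.5 with TGFB1 at D11, a rise of 1.44, but fell by 0.40 in D7 irradiated organoids. Ern2 fell by 0.30 and 0.80 at D7 and rose by 1.5 at D11. Sox9 and Foxa1 rose in all 3 tables, by 1.46, 0.81 and 0.76 and by 1.36, 1.49 and 1.66. The difference between tables was not tested, because the tables were normalized separately.

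Of the 11 Paneth genes, 3 rose and 7 fell in D7 non-irradiated organoids, 8 rose and 2 fell in D7 irradiated organoids, and 6 rose and 1 fell at D11. Lyz1 was at 1766, 1942 and 2048 FPKM with vehicle and at 2810, 2913 and 3091 with TGFB1 in D7 irradiated organoids, a rise of 0.62 ± 0.06 (SE, limma, adjusted p = 3.1693e-06). With quantile normalization that change was 0.04 (limma adjusted p = 0.416), so the call depends on how the libraries are scaled. That step keeps only a gene's rank in each library, so it cannot show a change that leaves the rank the same. At D11 Lyz1 rose by 0.76, and in D7 non-irradiated organoids it fell by 0.13. Mmp7 was at 69.9, 71.2 and 79.4 FPKM with vehicle and at 174, 186 and 173 with TGFB1 in D7 irradiated organoids, a rise of 1.26. It rose by 1.21 in D7 non-irradiated organoids and by 2.12 at D11, with no overlap of libraries in any table. Itln1 rose by 0.78 and 0.82 in the irradiated tables.

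**Figure D4:**
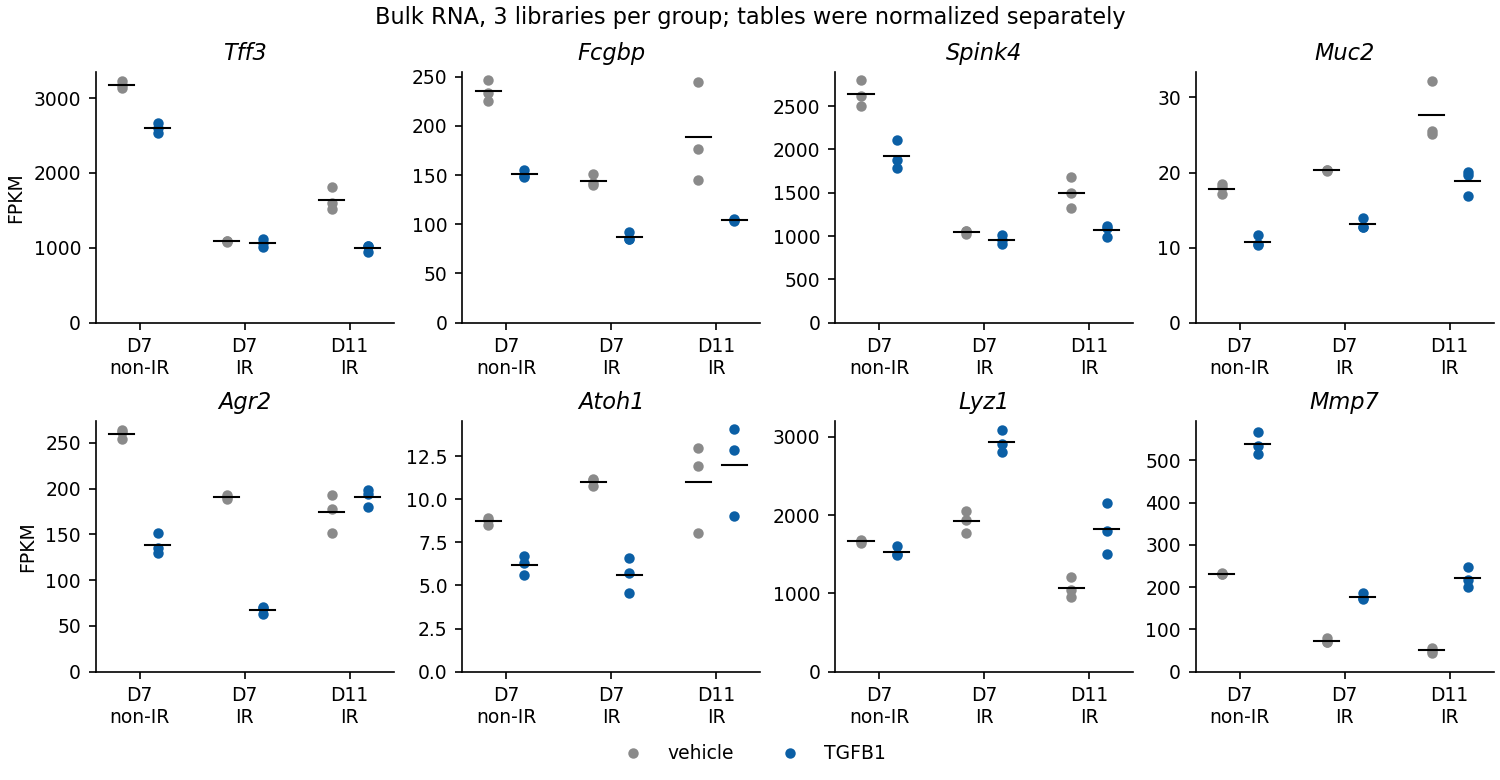
FPKM of 8 genes in each bulk library (points, 3 per group) with the group mean (black bar), vehicle in grey and TGFB1 in blue, for D7 non-irradiated, D7 irradiated and D11 irradiated organoids. Fcgbp and Muc2 are lower with TGFB1 in every table, Tff3 overlaps in D7 irradiated organoids, and Mmp7 is higher with TGFB1 in every table. Levels between tables are not on a common scale.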

How the data were processed

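Single-cell RNA was measured in 4 libraries of irradiated organoids (PIPseq T2 kit, per the labels' protocols). The deposited matrices hold expected counts of UMIs, fractional where a UMI was shared between genes, made with STARsolo (STAR 2.7.10a) per the submitters' processing notes, which list GRCm39 and mm39 beside mm9 without saying which serves which assay. Bulk RNA was deposited by the authors as FPKM in 3 tables of 23951 genes, with TopHat2 2.1.0 and Cuffnorm 2.2.1 in the same notes, and its read depth is unknown.

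UMIs were summed per library and cell set, rounded to whole numbers and tested with edgeR 4.0.16 in R 4.3.3 (filterByExpr, TMM, library as a block, Benjamini-Hochberg over all genes tested). DESeq2 1.42.0 was an alternative. Times were compared as CPM with exact Poisson intervals, as 1 library per time allows no test. FPKM were tested with limma 3.58.1 (trend, robust) on log2(FPKM + 1) keeping genes whose mean was 1 FPKM or more. Cells were read with scanpy 1.11.5, whose Scrublet called doublets. They were counted, not removed. On data simulated for the goblet-score comparison, edgeR recovered 30 of 51 genes raised 2-fold and 49 of 51 raised 4-fold, and 29 of 46 lowered 2-fold and 31 of 49 lowered 4-fold, with 5 false calls among 13344 unchanged genes.

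Goblet-score against other cells, the named genes are the 12 highest and 8 lowest with an adjusted p under 0.05, 100 UMIs or more and 1 direction in 4 libraries, and over time the 10 highest and 10 lowest 2-fold genes at 24 h with the same direction at 15 h. Genes of the fixed lists may also be named. Of the 8 lowest genes, 1 is not reported here. Members, lists and rules were chosen with earlier results of these data known. Replicate numbers did not pair the bulk libraries. Promoters of Tff3 and Spink4 and the ATAC libraries were not used here.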

Additional observations from a re-analysis of the deposited data

Results flagged for a closer look

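Several goblet and Paneth genes changed in opposite directions with TGFB1 in bulk RNA of D7 irradiated and D7 non-irradiated organoids, with no overlap between vehicle and TGFB1 libraries in either table. The difference itself was not tested, since the tables were normalized separately. Some of the single changes were not called in every setting. With quantile normalization, Defa24 in non-irradiated organoids showed no change and Lyz1 in irradiated organoids was at 0.04 (limma adjusted p = 0.416). That step keeps only a gene's rank in each library, so it cannot decide about a change that leaves the rank the same. Itln1 in non-irradiated organoids was at −0.08, and its call was lost without the filter on low values (adjusted p = 0.0643) and with any 1 of 5 of the 6 libraries left out (adjusted p 0.0863 to 0.157). The log2 change in irradiated minus that in non-irradiated organoids was 1.48 for Defa17, 0.91 for Defa24, 0.96 for Defa30 and 0.74 for Lyz1 among Paneth genes. Among goblet products it was 1.26 for Guca2a, 1.18 for Muc13, 0.85 for Itln1 and −0.71 for Ccl9. Among the factors it was 1.02 for Klf4 and −0.65 for Foxa2.

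The same score was also present in sorted Ki67-RFP positive crypt cells of Mki67tm1.1Cle/J mice, whose libraries were used in no comparison above. Cells at 20 or more per 10,000 UMIs were 113 of 1846 (6.12%) in the non-irradiated library, and 51 of 719 (7.09%) and 30 of 699 (4.29%) in the libraries taken 56 h after 12 Gy. These cells came from a sort and another tissue source, so the shares are set beside those of the organoids only as values.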

How the results depend on the processing

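The share of goblet-score cells depended on the limit and on Tff3. It was 3.68, 3.62, 3.56 and 4.46% at 0, 6, 15 and 24 h with a limit of 10, and 1.84, 1.61, 1.66 and 2.12% with a limit of 40. Without Tff3 in the score it was 1.23, 1.28, 1.28 and 1.53%. The share at 24 h was the highest of the 4 under these 3 settings, and that at 0 h with the limit of 20. Against other cells, 596 genes were higher and 1392 lower with no replicate block (library term left out), and leaving out each library gave 961 to 1111 higher and 1845 to 1926 lower. Leaving out each library, the Cck difference ran from −0.47 (without the 24 h library) to 4.23. Over time, a minimum of 100 CPM, which tests fewer genes, gave 26 higher and 5 lower at 6 h, 61 and 30 at 15 h, and 86 and 54 at 24 h. A limit of 40 gave 76 higher and 37 lower at 6 h, and 208 higher and 226 lower at 24 h, where the split turned. The cause was not tested. In the bulk tables, leaving out each library gave 4 higher and 11 to 13 lower (D7 non-irradiated), 7 and 9 to 11 (D7 irradiated), and 4 to 5 and 10 (D11).

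Same-numbered bulk libraries share only a number: their deviations correlated at −0.0856 to 0.213. With the replicate block the goblet genes called were 4 higher and 12 lower, 7 and 11, and 5 and 11 in the 3 tables, the same counts as without it. Few cells (58 to 98 per library) and 1 library per time limit the single-cell values.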
